A study of Mus musculus with 10 samples.

Results

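RNA of V6.5 ESCs, a mouse line of embryonic stem cells, was sequenced as 2 libraries per siRNA, which the labels number replicate 1 and replicate 2 and call biological replicates. The results below compare replicate 2 with replicate 1 of the ESC cultures, that is 4 of the 10 libraries of the series, and describe the 11315 of 24520 genes that reached 1 RPKM (a read density scaled to transcript length and library size) in at least 2 of these 4 libraries. One pair of libraries came from cells given a control siRNA against luciferase and the other from cells given a siRNA against Cbx3. Both pairs were V6.5 ESCs grown on irradiated mouse embryonic fibroblasts (MEFs) in medium with 15% serum and leukemia inhibitory factor (LIF). The labels carry the same text on siRNA timing for all samples, transfection on day 5 and harvest on day 8 of the neural protocol, and do not say whether it held for ESCs. The other 6 libraries came from cells differentiated from the same line through embryoid bodies and plated in ITSF medium, labelled NPCs (neural progenitor cells), with control, Cbx3 or Med26 siRNA and again 2 replicates each. They show here how far replicates lay apart elsewhere in the study and give levels to set beside those of the ESCs. Nothing in the labels says whether cultures with the same replicate number shared a passage, a feeder batch or a day, so p-values here measure no more than the spread of these libraries.

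ESCs grown with serum and LIF are a mixture that moves between a naive state, held by LIF signalling through Stat3 and factors such as Klf4, Esrrb and Tfcp2l1, and a state nearer to the epiblast after implantation. In that later state Otx2, Pou3f1, Lef1 and the de novo DNA methyltransferases are known to be high, and the naive factors low, while Pou5f1 and Sox2 are shared by both. The comparison asks which genes differed between the second and the first ESC culture within each siRNA.

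The libraries labelled as ESC held the defining ESC genes. Pou5f1 was between 252 and 536 RPKM, Sox2 between 72.1 and 131 RPKM and Zfp42 between 58.6 and 86.6 RPKM. NPC libraries still held Pou5f1 at 380 to 497 RPKM. The targeted gene, Cbx3, which encodes the heterochromatin protein HP1 gamma, was at 14 and 56.4 RPKM in control replicates 1 and 2 and at 1.01 and 1.96 RPKM after Cbx3 siRNA. It was lower after its siRNA in both replicates, and 28% of its transcript's sequence windows occur in other genes, as described below. The steps between low RPKM values correspond to 51.2 M and 24 M reads (M, mega) in control replicates 1 and 2 and 33.6 M and 23.2 M reads after Cbx3 siRNA, against 45.7 M to 63.7 M in the NPC libraries. A gene of 1 kilobase at 1 RPKM therefore rested on 23.2 to 51.2 reads in the ESC libraries. The rule for inclusion had members such as Pcdh7 just inside, with 1.0006 RPKM as its second highest ESC value, and Gm12359 just outside, with 0.9988 RPKM.

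Replicate 2 differed from replicate 1 at 4853 of the 11315 genes, or 42.9%, in a limma fit of log2(RPKM + 1) with siRNA as a block. Of these, 2267 (20% of genes tested) were higher and 2586 (22.9%) were lower in replicate 2. The same comparison among the NPC libraries called 858 genes (7.58%). The median size of the log2 difference was 0.254 in ESCs and 0.0765 in NPCs. The difference between the ESC and the NPC replicate difference was itself past the threshold at 5951 genes (52.6%). That test pools the spread of all 10 libraries, so its p-values may be too small wherever ESC cultures vary more. In the control pair and the Cbx3 siRNA pair the difference had the same sign for 81.8% of genes, with a Pearson r of 0.899 over genes, which are not independent replicates. With 4 libraries and 1 residual degree of freedom, the test leans on the spread shared across genes (7.5 prior degrees of freedom).

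Before genes are described, 1 property of the 2 replicate 2 libraries has to be stated. They stood apart from the other 8 libraries in genes whose sequence occurs elsewhere in the transcriptome. Gapdh, a glycolytic enzyme gene, was at 2.62 and 57.8 RPKM in control replicates 1 and 2 and at 1.82 and 53.2 RPKM after Cbx3 siRNA, and the 6 NPC libraries lay between 2.04 and 3.09 RPKM. Rps12, a gene of the small ribosomal subunit, was at 9.83 and 10.5 RPKM in the replicate 1 libraries and 141 RPKM in each replicate 2 library, against 10.5 to 12.6 RPKM in NPCs. In both genes the 2 replicate 2 libraries were high and the other 8 lay close together. Of 78 ribosomal protein genes, 74 were higher in replicate 2 and 0 lower, with a median difference of 1.89. Of 61 replication-dependent histone genes tested, 52 were higher and 2 lower. These are families with many processed pseudogenes or near-identical copies.

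To see what this means for a single gene, each transcript was cut into windows of 25 bases and every window was looked for in transcripts of other GENCODE M21 genes on the same strand. The lines below show, for 3 genes with large differences and for Pou5f1, the coding window carried by the largest number of other genes. Capitals mark the 25 shared bases, 5′ to 3′, and lower case the 10 coding bases on each side.
Gapdh: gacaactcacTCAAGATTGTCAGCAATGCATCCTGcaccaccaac
Rps12: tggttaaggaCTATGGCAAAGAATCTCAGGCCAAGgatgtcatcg
Krt8: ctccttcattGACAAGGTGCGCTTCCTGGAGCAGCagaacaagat
Pou5f1: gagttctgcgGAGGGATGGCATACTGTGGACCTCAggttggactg
The Gapdh window occurs in transcripts of 150 other genes, and 94.3% of the coding windows of Gapdh occur in at least 1 other gene. For Rps12 the window occurs in 24 other genes and 100% of coding windows are shared. The Krt8 window occurs in 6 other genes, 5 other keratins and the pseudogene Krt8-ps, and 48% of its coding windows are shared. For Pou5f1 the window occurs in 2 other genes and 18.9% of coding windows are shared.

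The replicate difference was larger in genes with many such windows, up to 90% of them. Its median was -0.09 over the 7002 genes with 0 to 1% of windows shared and -0.08 over the 1644 genes with 1 to 5%. It was 0.32 over the 729 genes with 20 to 50% and 0.70 over the 460 genes with 50 to 90%, and it was 0.15 over the 259 genes with 90 to 100%, whose 10th to 90th percentiles ran from -1.10 to 1.62. In the NPC libraries the medians of the same groups stayed between 0.01 and 0.06, and the bars of the plot by shared sequence are short there throughout. Of the 1449 genes with 20% or more shared windows, 54.5% were called higher and 12.3% lower in replicate 2. The sources used here do not say how reads with several matches were counted, and the part of read counting in these differences was not tested.

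**Figure D1:**
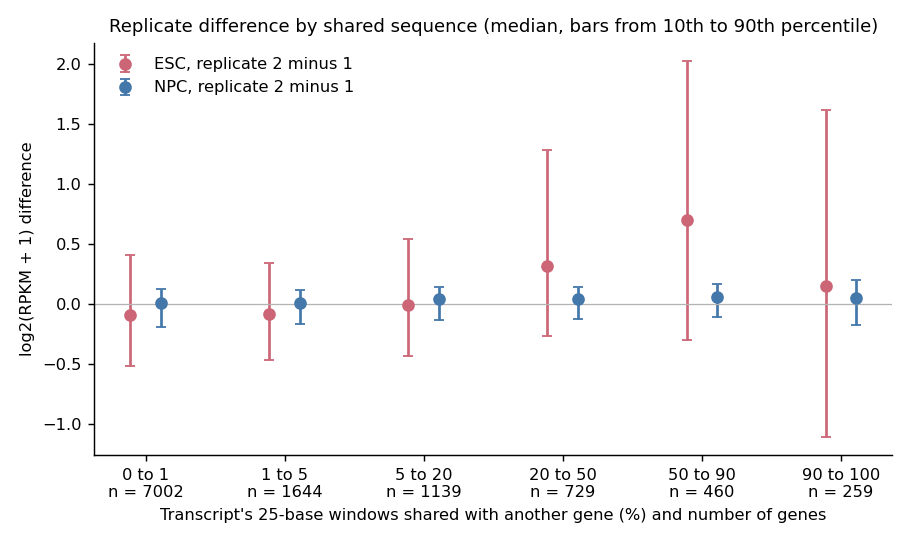
Replicate 2 minus replicate 1 in log2(RPKM + 1), for genes grouped by the percent of 25-base windows that occur in another gene's transcript. Points are medians and bars run from the 10th to the 90th percentile of genes. The ESC medians (red) go from -0.09 at 0 to 1% to 0.70 at 50 to 90%, while the NPC medians (blue) stay between 0.01 and 0.06.

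The 2 replicate 2 libraries also differed in which genes were listed at 0. At 18 genes all 8 other libraries were listed at 0 and both replicate 2 libraries held 1 RPKM or more. Among them were Hmgcs1, the cholesterol synthesis enzyme HMG-CoA synthase, at 19.1 and 15.0 RPKM, and Mia3, at 9.23 and 8.39 RPKM. Of the 18, 14 have another member of the set as a near neighbour within 1 megabase in the RefSeq annotation, such as Hmgcs1 with Zfp131, and Disp1, Brox, Aida, Mia3 and Taf1a as a run of 5. With no condition on the other libraries, 10 genes were listed at 0 in both replicate 2 libraries and 20 in both ESC replicate 1 libraries. The 10 were all small RNA genes with Mir, Snor or Scarna symbols. The 79 genes of small nucleolar and Cajal body RNAs had a median difference of -0.60, and the 74 microRNA genes one of -0.37. No fold is given against libraries listed at 0.

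The description of cell state therefore rests on 8584 genes with a sequence of their own, here called own-sequence genes. They have fewer than 5% of their windows in other genes, a transcript of at least 300 bases, and are not among the 18 above. This set was defined after the data were seen. Only exact matches in annotated transcripts were searched, so near-identical copies and unannotated copies elsewhere in the genome could be missed. Noncoding RNAs such as Scarna2 and Terc remain in the set. Of the 8584, 3303 (38.5%) were called, 1171 higher (13.6%) and 2132 lower (24.8%) in replicate 2. Both replicate 2 libraries lay above both replicate 1 libraries at 2094 of these genes (24.4%) and below both at 3668 (42.7%). Over all tested genes those shares were 30.5% (3450) and 38.6% (4369). The median difference over own-sequence genes was -0.09. The same-sign share was 80.6%, and Pearson's r between the 2 pairs was 0.836 over genes. Among them 154 were called with a rise of at least 2-fold and 105 with a fall of at least 2-fold. The NPC replicates differed at 667 of them (7.77%). The ESC and NPC differences differed from each other at 4263 (49.7%) in the test with pooled spread. Rescaling each library to the same summed RPKM moved the median difference of all tested genes by -0.106 and the share of calls that were higher from 46.7% to 33.5% (1786 higher and 3553 lower). Shifting each library to a common median turned that balance, with 2643 higher (53% of calls) and 2344 lower. Fitted alone, the own-sequence genes gave 1239 higher and 2231 lower, and 1785 higher (51.2% of calls) and 1698 lower once shifted in the same way.

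**Figure D2:**
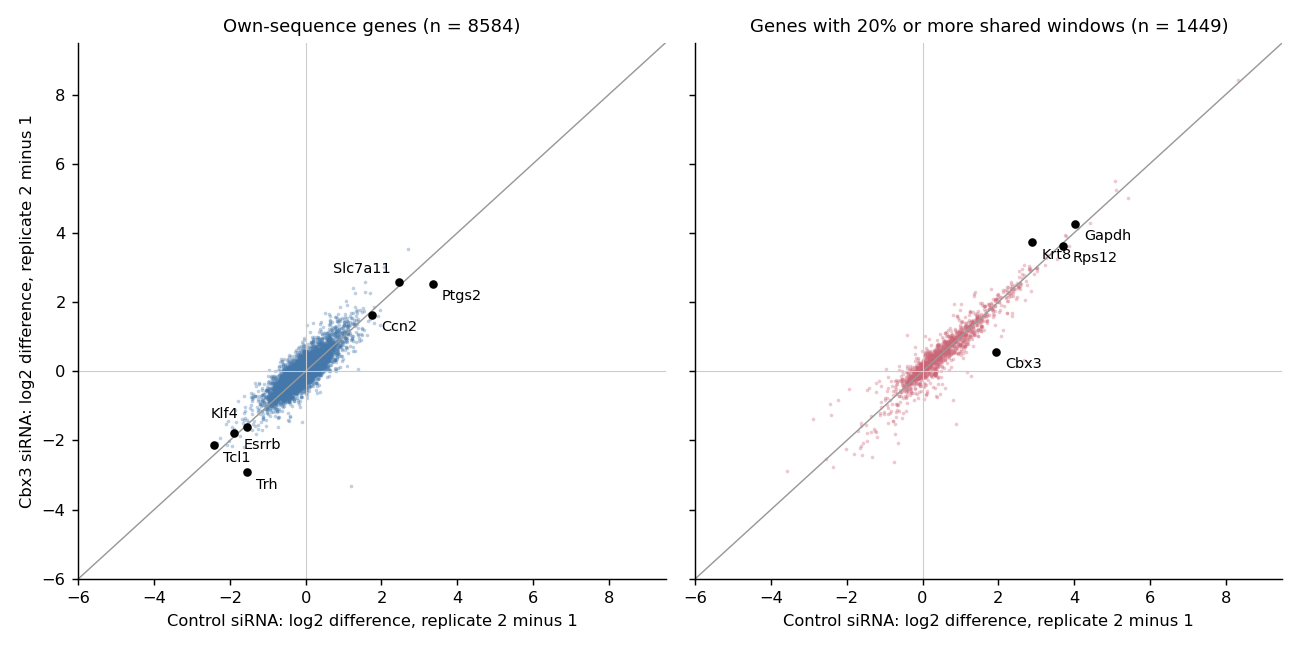
Each point is a gene, with the log2(RPKM + 1) difference between replicates 2 and 1 in the control siRNA pair on the x axis and in the Cbx3 siRNA pair on the y axis. The grey diagonal marks equal differences. Own-sequence genes (left) spread to both sides of 0 along the diagonal (r = 0.836), whereas genes with 20% or more shared windows (right) lie mostly above 0 in both pairs, with Cbx3 itself off the diagonal.

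The counts of each list below are to be read beside the shares over all own-sequence genes, 13.6% higher and 24.8% lower. Naive pluripotency genes were lower in replicate 2. Of 21 own-sequence members of the naive list, 19 were lower, 1 was higher (Zscan10, 0.29) and 1, Stat3, did not pass (-0.02, adjusted p = 0.888). The median difference was -0.93, against -0.09 over all own-sequence genes. In the test with pooled spread 17 of the 21 differed from the NPC replicate difference. The median was -0.93 in the control pair and -0.97 in the Cbx3 siRNA pair.

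Tcl1, a cofactor of the kinase Akt, was at 18.1 and 23.5 RPKM in the replicate 1 libraries of control and Cbx3 siRNA and at 2.57 and 4.54 RPKM in the replicate 2 libraries. Both replicate 2 values lay below both replicate 1 values, a log2 difference of -2.28 (SE 0.11, adjusted p = 1.46e-06). Esrrb, the orphan nuclear receptor of the naive network, was at 53.4 and 58.0 RPKM in replicate 1 and 13.7 and 16.2 RPKM in replicate 2 (-1.83, SE 0.09, adjusted p = 1.02e-06). The replicate 2 values of Esrrb still lay well above the NPC libraries, which held 0.913 to 2.14 RPKM. Klf4, a direct effector of LIF signalling, was at 20.7 and 25.4 RPKM in replicate 1 and 6.45 and 7.67 RPKM in replicate 2 (-1.58, SE 0.09, adjusted p = 5.36e-06). For Klf4 too the groups did not overlap, and NPC libraries were at 0.352 to 0.929 RPKM. Prdm14, a repressor of FGF signalling and DNA methylation, was at 4.00 and 6.28 RPKM in replicate 1 and 1.09 and 1.29 RPKM in replicate 2. The imprint keeper Zfp57 was at 40.4 and 35.2 RPKM against 14.2 and 17.5 RPKM. Tfcp2l1, a LIF target, was at 13.9 and 15.3 RPKM against 6.47 and 6.97 RPKM.

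Other members moved less, and the components of the LIF pathway were not alike. Nr0b1 (-1.16), Socs3 (-1.09), the feedback inhibitor that Stat3 induces, Gbx2 (-1.07), Klf2 (-1.06), Tbx3 (-0.92) and the LIF receptor gene Lifr (-0.79) were lower, and the co-receptor gene Il6st was lower by less (-0.30, adjusted p = 0.0462). Tet2, a 5-methylcytosine oxidase, was at 10.1 and 8.95 RPKM in replicate 1 and 5.09 and 5.96 RPKM in replicate 2 (-0.69), and its relative Tet1 was lower as well (-0.61). Fgf4, the ligand that pushes naive cells onward, was at 78.6 and 96.7 RPKM against 46.9 and 63.8 RPKM (-0.66). Members whose sequence is shared went both ways. Zfp42 (16.4% of windows shared) was lower (-0.42), as was the threonine dehydrogenase gene Tdh (29.5% shared, -1.21), while Dppa3 (36.6% shared) was higher (0.93). Over all 30 members 23 were lower and 3 higher.

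Sox2, Pou5f1 and Nanog, the best known core factors, were lower, while the core list as a whole went both ways. Sox2 was at 131 and 126 RPKM in replicate 1 and 72.1 and 72.1 RPKM in replicate 2, a difference of -0.83 (SE 0.08, adjusted p = 8.22e-05), with no overlap. Pou5f1, with 14.8% of its windows shared, was at 536 and 421 RPKM against 308 and 252 RPKM (-0.77, adjusted p = 0.00023). Nanog, with 13.4% shared, was at 44.2 and 68.3 RPKM against 18.0 and 24.5 RPKM (-1.35, SE 0.09). Of 9 own-sequence members of the core list 3 were lower, against 24.8% over all own-sequence genes, and 3 were higher. Lin28a, an RNA-binding protein that blocks let-7 maturation, was among those higher, at 110 and 110 RPKM in replicate 1 and 195 and 211 RPKM in replicate 2 (0.88). Sall4 was higher by 0.40. The list's median was -0.16.

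Genes of the formative and primed epiblast were higher in replicate 2. Of 15 own-sequence members 9 were higher, 1 lower and 5 did not pass, with a median of 0.56. Pou3f1 (Oct6), a POU factor of the early epiblast and of glia, was at 4.68 and 3.60 RPKM in replicate 1 and 13.0 and 10.9 RPKM in replicate 2 (1.34, SE 0.11, adjusted p = 2.75e-05). NPC libraries lay above both, at 17.8 to 22.9 RPKM. Cldn6, a tight junction gene, was at 22.1 and 21.3 RPKM against 55.2 and 56.1 RPKM (1.32). Lef1, a nuclear effector of Wnt signalling, was at 1.85 and 0.620 RPKM against 6.79 and 2.43 RPKM (1.26). In each of these genes both replicate 2 libraries were above both replicate 1 libraries. Zic2 (0.98), Cdh2, the neural cadherin (0.81), Otx2 (0.79), Soat1 (0.62) and Sall2 (0.56) were higher too. Otx2, which directs the exit from the naive state, was at 5.02 and 4.09 RPKM in replicate 1 and 9.47 and 7.73 RPKM in replicate 2. Etv4, a target of FGF signalling, was the member that was lower (-0.79). Dnmt3a did not pass (-0.11, adjusted p = 0.425). Dnmt3b was at 120 and 84.2 RPKM against 218 and 164 RPKM (0.91), with 14% of its windows shared. Fgf5, the classic marker of this state, stayed low in all 4 ESC libraries, at 0.156 and 0.262 RPKM in replicate 1 and 0.797 and 0.413 RPKM in replicate 2, and was not tested.

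**Figure D3:**
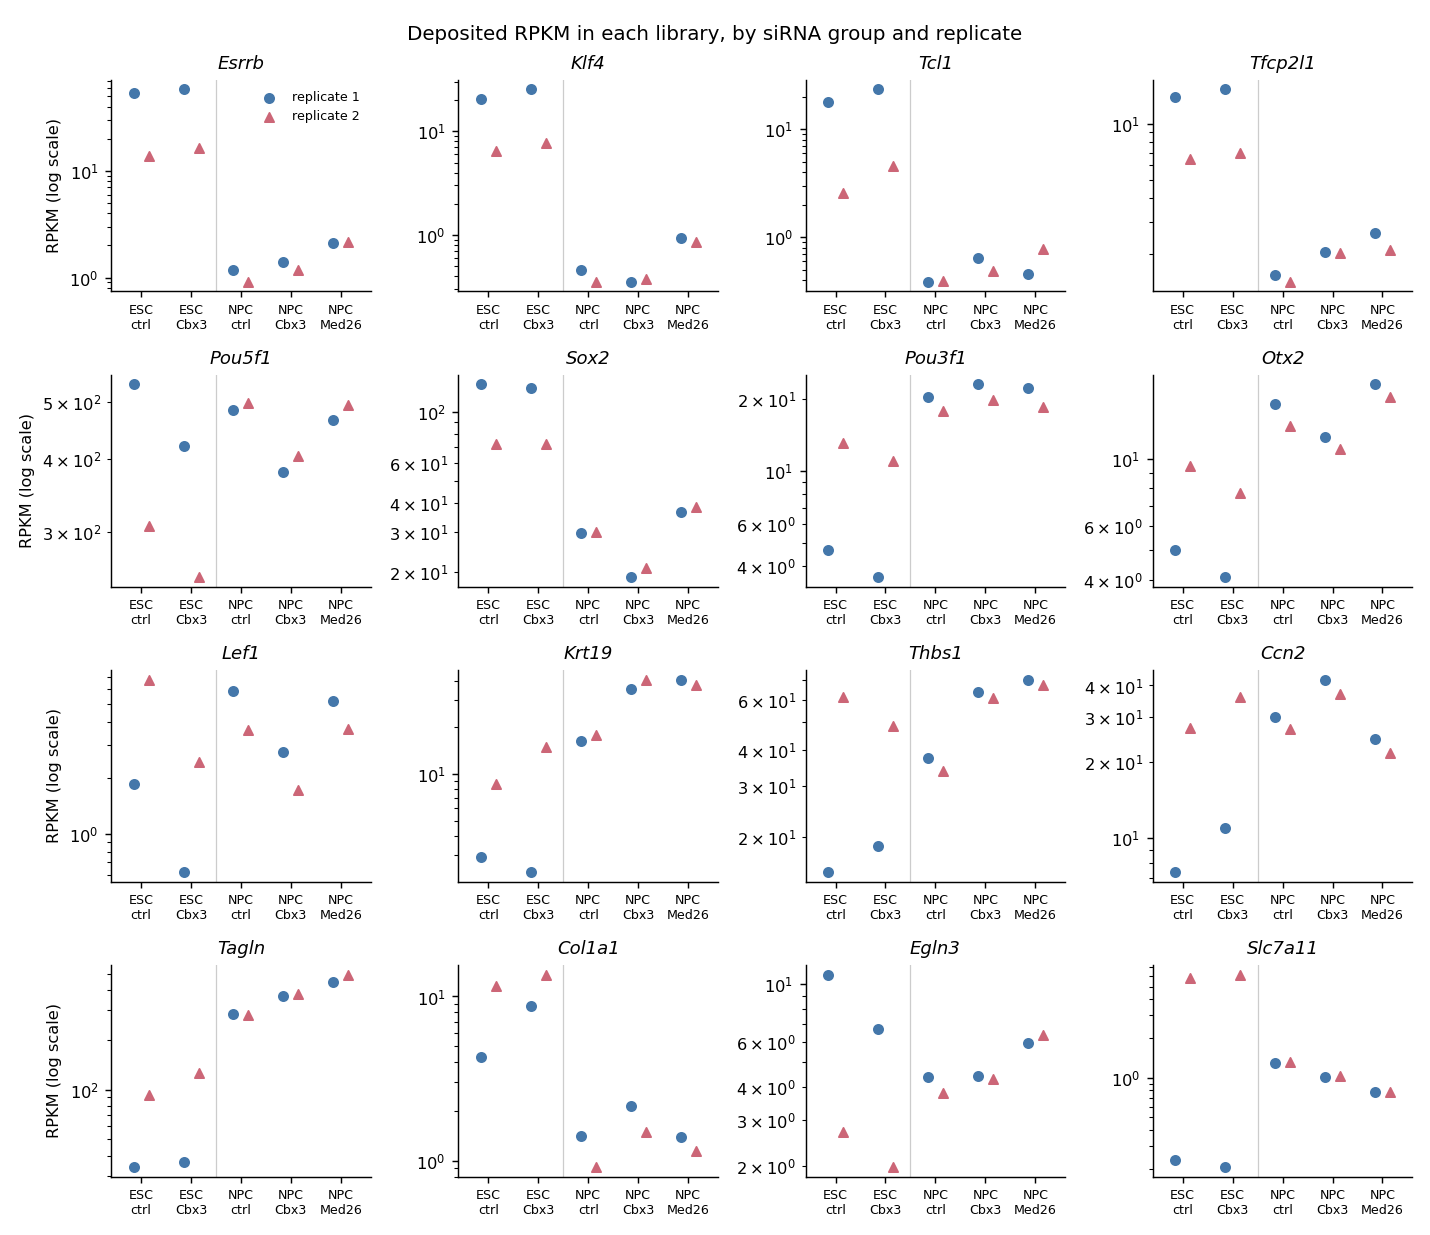
Deposited RPKM of 16 genes on log axes, with the 5 siRNA groups along each x axis, blue circles for replicate 1 and red triangles for replicate 2. In the ESC groups the triangles of Esrrb, Klf4, Tcl1 and Tfcp2l1 lie below the circles and those of Pou3f1, Otx2 and Lef1 above them, in both siRNA groups. Each panel has its own axis range.

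Endodermal genes were mostly lower in replicate 2. Of 11 own-sequence members 8 were lower and 1 higher, with a median of -0.64. Cubn, the endocytic receptor cubilin of visceral endoderm, was at 2.03 and 2.02 RPKM in replicate 1 and 0.0588 and 0.103 RPKM in replicate 2 (-1.48). The laminin gene Lama1 was at 10.5 and 13.5 RPKM against 4.03 and 4.22 RPKM (-1.33). Col4a1, a basement membrane collagen, was lower (-1.01), and the matrix gene Sparc was higher (0.63). Gata6, the factor of primitive endoderm, was at 1.13 and 0.802 RPKM in replicate 1 and 0.130 and 0.162 RPKM in replicate 2, and Sox17 at 0.374 and 0.371 RPKM against 0.0633 and 0.0786 RPKM. Both were below the minimum for testing. In bulk RNA, fewer cells of a type and less RNA per cell cannot be told apart.

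Neural progenitor genes went both ways. Of 13 own-sequence neural progenitor genes 4 were higher, 2 lower and 7 did not pass. The shares over all own-sequence genes were 13.6% higher and 24.8% lower. Nes, an intermediate filament of neural precursors, was at 6.35 and 4.71 RPKM in replicate 1 and 15.4 and 13.0 RPKM in replicate 2 (1.23), and Pax6 at 0.704 and 0.558 RPKM against 2.07 and 1.19 RPKM (0.67). Sox1, the earliest neural Sox gene, was at 5.52 and 4.95 RPKM against 5.50 and 4.81 RPKM (-0.02, adjusted p = 0.905). The streak gene T stayed at or below 0.285 RPKM in the ESC libraries, Cdx2 at or below 0.301 RPKM and the 2-cell gene Zscan4c at or below 1.87 RPKM. Eomes did not pass (-0.15, adjusted p = 0.329). Imprinted genes were mostly higher, 9 of 16 against 2 lower, among them the noncoding RNAs H19 (1.64 and 2.59 RPKM against 6.65 and 10.9 RPKM) and Rian (29.1 and 26 RPKM against 66.7 and 56.7 RPKM).

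Cytoskeletal and epithelial genes were mostly higher, and contractile genes went both ways with more members higher than lower. The Yap and cytoskeletal list holds targets of Yap, the Hippo pathway's coactivator, genes of that pathway such as Yap1 and Lats2, and cytoskeletal genes. It had 14 of 20 own-sequence members higher and 2 lower, with a median of 0.67. Ccn2, a matricellular protein and a standard Yap target, was at 7.38 and 10.9 RPKM in replicate 1 and 27.2 and 36.0 RPKM in replicate 2 (1.69, SE 0.09, adjusted p = 2.81e-06). Ccn1 was at 9.28 and 10.1 RPKM against 28.0 and 35.6 RPKM (1.61). Zyx, a focal adhesion protein, was higher by 1.53. The actin-binding proteins of contractile cells followed. Tagln was at 34.1 and 36.4 RPKM against 93.3 and 126 RPKM (1.59), and NPC libraries were higher still at 280 to 494 RPKM. Tpm1 (1.53), Cnn1 (1.60) and Myl9 (1.36) were higher, and Mymx, a gene of muscle cell fusion, was lower (-1.42). Tpm1 and Myl9 belong to the Yap and cytoskeletal list as well as to the muscle list. The smooth muscle actin gene Acta2 was higher by only 0.31, and its replicate groups overlapped. Over the muscle list 8 of 13 own-sequence members were higher and 4 lower, with a median of 0.34. That median was 0.13 in the control pair and 0.55 in the Cbx3 siRNA pair.

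Of 17 own-sequence epithelial genes 11 were higher and 1 lower, with a median of 0.47. The median was 0.32 in the control pair and 0.59 in the Cbx3 siRNA pair. Krt19, a keratin of simple epithelia, was at 2.91 and 2.34 RPKM in replicate 1 and 8.66 and 14.9 RPKM in replicate 2 (1.78, SE 0.20). Krt7 (1.58) and the desmosomal gene Dsp (1.18) were higher as well. The partner keratins Krt8 and Krt18 differed more. Krt8 was at 4.59 and 6.30 RPKM against 40.7 and 95.7 RPKM (3.31), and Krt18 at 10.05 and 12.4 RPKM against 54.3 and 128 RPKM (2.79). Their transcripts share 35.9% and 18.3% of windows with other genes, the Krt8 window printed above being 1 of them.

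Fibroblast feeder genes were higher as well, 15 of 22 own-sequence members with 0 lower and a median of 0.53. Thrombospondin, Thbs1, was at 15.1 and 18.6 RPKM against 61.2 and 48.5 RPKM (1.64), Fbn1 at 1.28 and 1.69 RPKM against 6.02 and 4.58 RPKM (1.34), and Col1a1 at 4.30 and 8.69 RPKM against 11.6 and 13.6 RPKM (0.92). In these genes both replicate 2 libraries were above both replicate 1 libraries. Postn was at 0.461 and 0.419 RPKM against 1.67 and 2.34 RPKM (1.05), and Dcn, below the minimum for testing, at 0.0724 and 0 RPKM against 0.441 and 0.548 RPKM. Other defining markers of fibroblasts differed less. Col1a2 was at 14 and 15.4 RPKM against 21.8 and 14 RPKM (0.24, adjusted p = 0.242), Thy1 was higher by 0.37, S100a4 did not pass (0.14, adjusted p = 0.313) and Lum was listed at 0 in all 4 libraries. Summed over all 32 list members, the level was 189 and 223 RPKM in replicate 1 and 328 and 417 RPKM in replicate 2, against 106 to 170 RPKM in NPCs. The feeder list and the Yap and cytoskeletal, epithelial and primed lists thus moved in the same libraries, and the part of feeder RNA in these differences was not tested. The lists are not wholly separate, since the primed and epithelial lists both hold Grhl2.

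The largest differences among own-sequence genes were found in secreted proteins, enzymes and a transporter. Ppbp, a platelet and fibroblast chemokine, was at 0.108 and 0.0551 RPKM in replicate 1 and 6.24 and 11.2 RPKM in replicate 2 (3.12, SE 0.19, adjusted p = 4.96e-06). Ptgs2, the inducible cyclooxygenase, was at 0.647 and 2.10 RPKM against 15.8 and 16.9 RPKM (2.94). The urokinase gene Plau was at 1.67 and 0.750 RPKM against 10.2 and 13.0 RPKM (2.54). All 3 had both replicate 2 libraries far above the other 8, since NPC libraries stayed at or below 3.10 RPKM. Slc7a11, the cystine transporter that supplies glutathione synthesis, was at 0.235 and 0.207 RPKM against 5.85 and 6.17 RPKM (2.52, SE 0.12). The metallothioneins Mt1 (222 and 166 RPKM against 526 and 425 RPKM, 1.30) and Mt2 (1.45) were higher. Anxa3 (1.98), Cyp1b1 (1.93), Ltbp1 (1.83), Tnc (1.75) and Sema3c (1.67) were among the 15 largest rises, as were 3830417A13Rik (2.076), Krt19, Ccn2 and Thbs1. B2m, the light chain of MHC class I, was higher (1.23) and Psmb8 too (0.82). Their list, interferon and MHC class I genes, had 2 higher and 3 lower of 9 own-sequence members, with a median of -0.06.

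Among own-sequence genes that were lower, Trh, the precursor of thyrotropin-releasing hormone, followed Tcl1, with 110 and 127 RPKM in replicate 1 and 36.9 and 15.9 RPKM in replicate 2 (-2.24, SE 0.25, adjusted p = 0.000198). Scarna2 (-2.10) and the telomerase RNA Terc (-2.04, 204 and 259 RPKM against 52.6 and 57.6 RPKM) are noncoding RNAs. The list of nuclear noncoding RNAs that holds Terc had 2 of 5 own-sequence members lower and 0 higher. Srgn, a proteoglycan of secretory granules, was at 3.79 and 2.98 RPKM against 0 and 0.0459 RPKM. Inhbb, a subunit of activin and inhibin, was at 9.98 and 10.1 RPKM against 1.70 and 1.72 RPKM (-2.02). Tcf15, a helix-loop-helix factor, was at 70.3 and 47.7 RPKM against 16.3 and 17.0 RPKM (-1.74). Lrrc34, Ntn1, Myo1f, Pltp, Rdm1 and 1700120C14Rik were lower by 1.90, 1.81, 1.80, 1.79, 1.78 and 1.65 on the log2 scale in the same way, both replicate 2 values lying below both replicate 1 values.

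The sequences before the start sites of the genes that lead these 2 groups are shown so that the members can be seen beside their values. Each line gives the 150 bases upstream of the RefSeq start, 5′ to 3′ on the gene's strand, for the 3 largest rises and the 3 largest falls among own-sequence genes with an entry in the promoter table (GRCm38.p6). Genes without an entry, such as Plau and Scarna2, are only named. Capitals mark matches, on either strand, to these motifs: the TATA box (TATAAA), the CCAAT box, the GC box (GGGCGG), the E-box (CACGTG), the cyclic AMP element (TGACGTCA), the composite element of C/EBP and ATF factors (TGATGCAA), the hypoxia core (ACGTG, which lies within the E-box) and the octamer of POU factors (ATTTGCAT).
Ppbp (chr5:90768368-90768517, plus strand): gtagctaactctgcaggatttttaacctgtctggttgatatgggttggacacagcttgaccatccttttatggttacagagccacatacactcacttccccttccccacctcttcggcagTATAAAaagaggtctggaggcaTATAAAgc
Ptgs2 (chr1:150099881-150100030, plus strand): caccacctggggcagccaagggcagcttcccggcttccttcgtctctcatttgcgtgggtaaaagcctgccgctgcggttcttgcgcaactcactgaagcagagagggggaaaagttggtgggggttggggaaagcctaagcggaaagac
Slc7a11 (chr3:50443614-50443763, minus strand): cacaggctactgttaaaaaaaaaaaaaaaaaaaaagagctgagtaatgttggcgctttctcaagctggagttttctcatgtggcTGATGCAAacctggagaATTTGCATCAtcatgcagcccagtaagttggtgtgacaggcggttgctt
Tcl1 (chr12:105222738-105222887, minus strand): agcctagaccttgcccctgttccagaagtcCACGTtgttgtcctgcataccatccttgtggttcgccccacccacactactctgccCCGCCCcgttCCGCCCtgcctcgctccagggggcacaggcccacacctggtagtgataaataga
Trh (chr6:92244651-92244800, minus strand): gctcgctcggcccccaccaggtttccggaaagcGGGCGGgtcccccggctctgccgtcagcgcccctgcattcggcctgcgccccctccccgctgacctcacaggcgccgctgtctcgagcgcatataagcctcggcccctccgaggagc
Srgn (chr10:62527446-62527595, minus strand): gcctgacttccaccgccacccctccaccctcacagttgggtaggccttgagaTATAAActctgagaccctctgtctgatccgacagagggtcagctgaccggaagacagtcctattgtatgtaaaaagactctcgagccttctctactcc
Slc7a11 held TGATGCAA 1 time on each strand, and ATTTGCAT overlapping the second copy. TGATGCAA was present in 0.5% and ATTTGCAT in 1% of the 32851 windows of this length in the table. Ppbp held TATAAA 2 times and Srgn 1 time (7.6% of windows). Tcl1 held GGGCGG 2 times and ACGTG 1 time, and Trh held GGGCGG 1 time (28.6% and 11.2% of windows for GGGCGG and ACGTG). In Ptgs2 none of these letters were found in this window. A match is a run of letters and not a site of binding.

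Growth factor pathways differed member by member. Over all own-sequence genes 13.6% were higher and 24.8% lower, and the counts of lower FGF and Wnt genes below lie near that share. Among own-sequence genes of the Nodal, TGF-beta and BMP pathways 7 were higher and 6 lower of 19. The BMP targets Id2 (1.26) and Id3 (9.03 and 12.2 RPKM against 19.9 and 26 RPKM, 1.05) were higher, while the ligand Bmp4 was lower (-0.87). The median was 0.10 in the control pair and -0.12 in the Cbx3 siRNA pair, so the list is given no direction. Of 11 Notch genes 5 were lower, with Hes1, the effector, at 16.0 and 14.7 RPKM against 8.26 and 7.68 RPKM (-0.87), and 2 were higher, among them Notch2 (0.53). FGF and ERK feedback genes were split, 4 higher and 3 lower of 14, with Dusp5 (0.69) and Fgfr2 (0.63) higher and Spry4 lower (-0.64). Wnt genes were 3 higher and 3 lower of 13, with Tcf7l1 higher (0.60) and Notum, a secreted Wnt deacylase, lower (-0.92). Immediate early genes were mostly higher, 10 of 18 against 2, with Klf6 (1.26), Atf3 (0.99) and Jun (0.79). This list shares Ccn1 and Ccn2 with the Yap and cytoskeletal list.

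Own-sequence genes of glycolysis and hypoxia, oxidative phosphorylation, cholesterol synthesis, DNA replication and mitosis were mostly lower. Other metabolic and division lists were split. Lysosome and autophagy genes were 5 higher and 6 lower of 24, and G1 cyclins and inhibitors 5 higher and 4 lower of 21. In the glycolysis and hypoxia list 15 of 21 own-sequence members were lower and 1 higher, with a median of -0.52. Egln3, a prolyl hydroxylase that hypoxia induces, was at 10.8 and 6.69 RPKM in replicate 1 and 2.71 and 1.98 RPKM in replicate 2 (-1.52, SE 0.13). Ankrd37 (-1.23) and Ddit4 (38.5 and 30.2 RPKM against 17.2 and 11.5 RPKM, -1.22) were lower as well. The members of the same list with shared sequence ran the other way, as Gapdh did, with Pgk1 (68.4% shared) higher by 1.38 and Eno1 (78.8% shared) by 1.61. Oxidative phosphorylation showed the same split. Of 22 own-sequence members 15 were lower and 0 higher, with a median of -0.31, whereas Cox7c (56.4% shared) was higher by 1.32 and Uqcrb (57.3% shared) by 1.08. Cholesterol synthesis genes were lower at 15 and higher at 4 of 26.

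DNA replication genes were lower at 13 and higher at 0 of 23 own-sequence members, with a median of -0.35, and mitosis genes at 10 and 0 of 16, with a median of -0.31. Pola1, the catalytic subunit of DNA polymerase alpha, was at 30.7 and 31.4 RPKM against 16.2 and 19 RPKM (-0.79), and Cenpf, a kinetochore protein, was lower by 0.71 on the log2 scale. Pcna (40.6% shared) was higher (0.90). Of 22 p53 targets 11 were lower, among them Trp53inp1 (-0.85) and Bbc3 (-0.71), and 2 higher. Over all own-sequence genes 24.8% were lower and 13.6% higher, and the share lower was larger among genes of high level, as given above. In the integrated stress response 9 of 30 were higher and 5 lower, and the list's median of -0.03 lay near that of all genes. The HP1 and H3K9 methylation list had 9 of 18 lower and 0 higher. Ehmt2, the H3K9 methyltransferase G9a, was at 55.0 and 35.1 RPKM in control replicates 1 and 2 and at 18.6 and 10.2 RPKM after Cbx3 siRNA (-0.72), so that it was lower in replicate 2 within each siRNA although the groups overlapped.

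**Figure D4:**
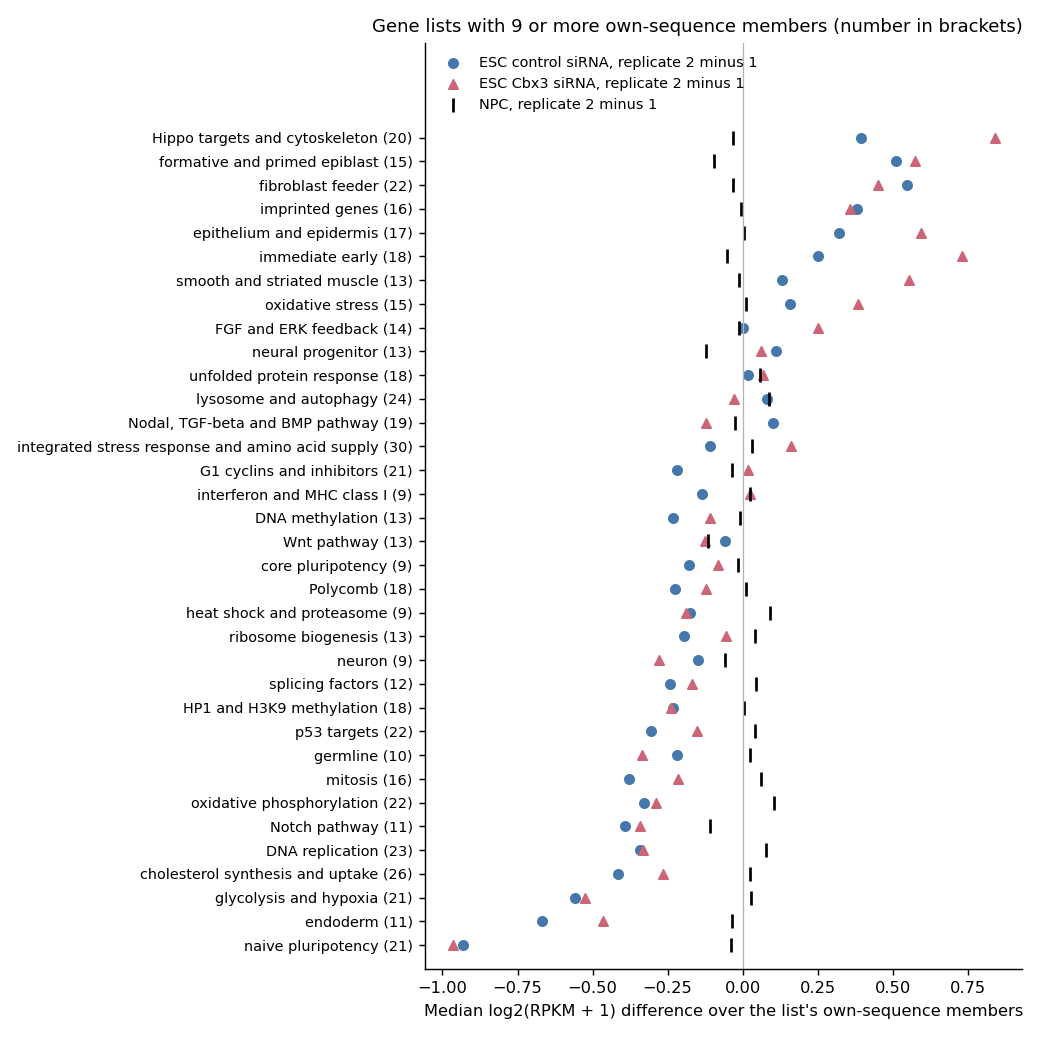
Median difference between replicates 2 and 1, in log2(RPKM + 1), over the own-sequence members of each gene list with 9 or more of them, for the ESC control pair (circles), the ESC Cbx3 siRNA pair (triangles) and the NPC libraries (bars). Naive pluripotency is lowest in both ESC pairs (-0.93 and -0.97). Lists such as Hippo targets and cytoskeleton, primed epiblast and feeder lie above 0, while the NPC medians stay between -0.12 and 0.10.

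The 2 siRNA pairs were also compared with each other. The replicate difference after Cbx3 siRNA differed from that in control at 68 genes (0.601%), 50 of them with their own sequence (0.582% of own-sequence genes), in a fit that takes its spread from the NPC pairs. Each siRNA and replicate has 1 ESC library, so the ESCs give no spread of their own to this test. The NPC replicates lay closer together (Pearson's r of 0.9948 to 0.9956 over own-sequence genes, against 0.9614 and 0.9645 in ESCs), so these p-values are too small wherever ESC cultures vary more. Trh was lower by 1.55 in control and by 2.92 after Cbx3 siRNA. Cbx3 itself differed by 1.94 in control and 0.56 after its siRNA. The Yap and cytoskeletal list had medians of 0.40 in control and 0.84 after Cbx3 siRNA, and the immediate early list 0.25 and 0.73. Both lists hold Ccn1 and Ccn2, and these list differences were not tested.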

How the data were processed

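RNA-seq of 10 libraries was deposited by the authors as RPKM values, 1 row per RefSeq accession and 1 column per library (34720 accessions in 35860 rows). TopHat2 2.08 and build mm9 are named, with no role, per the submitters' processing notes. The sources used here state neither the counting tool, nor whether strand was used, nor how reads matching several places were treated. Symbols from RefSeq tables matched 99.07% of rows, and for each of 24520 genes the row with the highest mean over the 10 libraries was kept. Groups and replicate numbers came from sample titles.

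Differences were tested on log2(RPKM + 1) in limma 3.58.1 (R 4.3.3), empirical Bayes with intensity trend, two-sided, Benjamini-Hochberg adjusted p at 0.05 over 11315 genes. A fold on this scale understates the change of low genes. The main fit held 4 ESC libraries with siRNA as a block. Contrasts with NPCs used all 10 libraries, and the scripts were tested on simulated data. Counts were not used. The steps between low RPKM values gave the read depth, with 68.8% to 74.3% of low values within 0.1 of a whole step, too few for a count test. Transcript windows came from GENCODE M21 and promoters and symbols from RefSeq (GRCm38.p6). Transcripts matched 99.3% of tested genes.

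The members and gene lists were chosen with earlier results of these data known. Named genes are the 15 largest rises and falls past the threshold without overlap (over all and over own-sequence genes), up to 6 called members per list and fixed genes. Further list members, the genes at 0 elsewhere and the own-sequence set were chosen after values were seen. Some genes that the rule names are not reported here. Alternatives were other pseudocounts, filters, scalings, fits and left-out libraries.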

Additional observations from a re-analysis of the deposited data

Results flagged for a closer look

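The replicate difference in ESCs differed from that in NPCs at 5951 genes, by the limma test of the difference between the 2 cell types. This test pools the spread of ESC and NPC libraries. Within ESCs the replicate difference differed between the Cbx3 siRNA pair and the control pair at 68 genes. The limma test behind that count takes its spread from the NPC libraries. The NPC libraries lie closer together than the ESC libraries, so the p-values of both tests may be too small. Among named genes, the difference after Cbx3 siRNA minus that in control was 1.007 for 3830417A13Rik, 0.9415 for Peg10, 0.9411 for Krt18, 0.8612 for Jarid2, 0.8277 for Krt8 and 0.7015 for Nop16. It was -1.378 for Cbx3 itself, -1.371 for Trh, -0.9137 for the histone gene H2bu2 and -0.6107 for Thbs1. Jarid2, a Polycomb cofactor, was at 109 and 54.0 RPKM in control replicates 1 and 2 and at 68.0 and 61.9 RPKM after Cbx3 siRNA. The imprinted gene Peg10 went from 12.5 to 20.2 RPKM between control replicates 1 and 2 and from 7.12 to 23.5 RPKM between those with Cbx3 siRNA. Each siRNA has 1 library per replicate number, so a single library can set such a value.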

How the results depend on the processing

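No named gene's difference reversed under the alternatives run, but the balance of calls did: a median shift gave 2643 higher and 2344 lower (53% higher, against 46.7%). Without the filter on low values limma called 0 genes in total, 0 higher and 0 lower, over 24520 genes, with 5372 at an unadjusted p under 0.05 and a lowest adjusted p of 0.132. There the residual and prior degrees of freedom came to 1.68. Genes with a mean of 5 RPKM or more gave 1451 higher, and the fit without the siRNA block gave 1644 lower. Own-sequence genes fitted alone, chosen after seeing the data, gave 1239 higher, and 1698 lower with a median shift. Leaving out any 1 ESC library leaves 1 pair of single libraries whose spread is borrowed from the other groups. It gave 5562 to 5864 calls in all, which says nothing about stability. For the NPC replicates the fit of all 10 libraries called 375 genes, and leaving out 1 NPC library called 0 to 419, with 0 for either control or either Cbx3 siRNA library (2252 to 2524 at an unadjusted p under 0.05) and 379 or 419 without a Med26 siRNA library. Of 279 named genes, 273 lost their call without the filter, 23 without the siRNA block and at most 7 under any other setting. Among the last were Thy1, Jarid2, Nop16 and Pecam1 without control replicate 1. The comparison of Cbx3 siRNA with control in ESCs called 0 genes in limma without the replicate block (119 at an unadjusted p under 0.05) and 70 with the replicate block, whose pairing by replicate number is not stated in the labels. ESC replicate 2 libraries had 23.2 M to 24 M reads (M, mega), which limits genes near the minimum of 1 RPKM.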
